A study of Mus musculus with 10 samples.

Results

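The transcripts described here are 10 genes that mark dendritic cells or rise when dendritic cells are licensed through the receptor CD40, chosen by name from the 55385 mouse genes of the count table: Ccr7, Fscn1, Il12b, Ccl22, Ccl17, Flt3, Batf3, Xcr1, Clec9a and Cd209a. Each was matched by its Ensembl identifier to its symbol in GENCODE M21 (GRCm38). The 10 libraries hold bulk RNA of neutrophils, isolated as Tomato+ cells from squamous cell carcinomas that had been grafted on CatchupIVM-red reporter mice. In all 4 groups the host was this reporter strain. Control grafts were the parental Sox2low carcinoma cells, and Sox2Hi grafts were carcinoma cells with high Sox2. The sample descriptions mark every library C57, the control grafts GFP and the others Sox2, without saying what these marks stand for. Naive tumours were untreated, and treated tumours came from mice given anti-PDL1/CD40 agonist, so the agents cannot be told apart from each other. Of the libraries, 3 came from naive control grafts, 2 from treated control grafts, 3 from naive Sox2Hi grafts and 2 from treated Sox2Hi grafts. The labels do not say whether libraries of a group came from separate mice or tumours, so p-values measure only the spread between these libraries. The Y-linked gene Ddx3y had at most 8 reads in 1 library of each group and at least 1007 in the others, so the libraries of a group were not all repeats of 1 RNA sample. The study asked whether Sox2 in the tumour cells changes how neutrophils respond to interferon under this treatment.

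Dendritic cells take up antigen, mature, move to lymph nodes and prime T cells. Engagement of CD40, normally by its ligand on helper T cells, licenses them: NF-kB is activated, the costimulatory proteins Cd80 and Cd86 and the interleukin 12 subunits are induced, and the cell becomes able to prime killer T cells. Type 1 dendritic cells depend on the transcription factor Batf3 and carry Xcr1 and Clec9a, while Cd209a is used as a marker of type 2 and monocyte-derived dendritic cells.

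Total counts ran from 13815734 to 22986193 per library. All libraries held transcripts of the labelled cell type, with S100a8, an abundant calcium-binding protein of neutrophils, at 18074 to 141409 reads and Cxcr2, their main chemokine receptor, at 3015 to 8182 reads. Reads also fell on genes that should be silent. From 1420 olfactory and vomeronasal receptor genes a background rate per kb of exon was taken in each library, and scaled to all genes it made up 1.60% to 8.40% of counts, with the lowest values, 1.73% and 1.60%, in the control treated libraries. Fold changes below are on the log2 scale from edgeR's quasi-likelihood test, a gene is called at a Benjamini-Hochberg adjusted p under 0.05 over all 29648 genes tested, and CPM are scaled by TMM factors from all these genes. Because background differs between groups, a second set of factors from the 11096 genes that averaged 5 CPM or more (expressed-gene factors) is given beside results whose direction or call it changes. It moved the median of all genes for treatment from -0.30 to -0.74 in control grafts and from 0.07 to 0.27 in Sox2Hi grafts.

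All 10 transcripts were rare in these libraries, and they differed in how far they stood above the silent-gene background. Summed over libraries, reads were 19.3 times the expected background for Cd209a, 15.3 times for Ccl17, 13.4 times for Ccr7 and 10.2 times for Il12b. These 4 of the 10 exceeded 8.49 times, the 95th percentile of the silent genes themselves. Fscn1 stood at 6.38 times, Xcr1 at 5.06, Batf3 at 4.44, Ccl22 at 2.69 and Clec9a at 2.01. Flt3, the receptor for the growth factor that maintains dendritic cells, was at 1.24 times, ranging from 0.96 to 1.51 over libraries, and 41.3% of silent genes had a ratio at least as high. Per kb of exon the mean level over libraries fell from 5.57 CPM for Cd209a through 4.46 for Ccl17, 4.26 for Ccr7 and 3.46 for Il12b to 0.65 for Clec9a and 0.38 for Flt3. Zbtb46, a transcription factor of conventional dendritic cells, was at 1.16 times background, and Lamp3, a marker of mature ones, at 0.66 times, while the most abundant genes of the same lists, which other myeloid cells also express, stood far above it, Samsn1 at 655 and Cd74 at 16679 times. In bulk RNA, fewer cells of a type and less RNA per cell cannot be told apart.

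**Figure D1:**
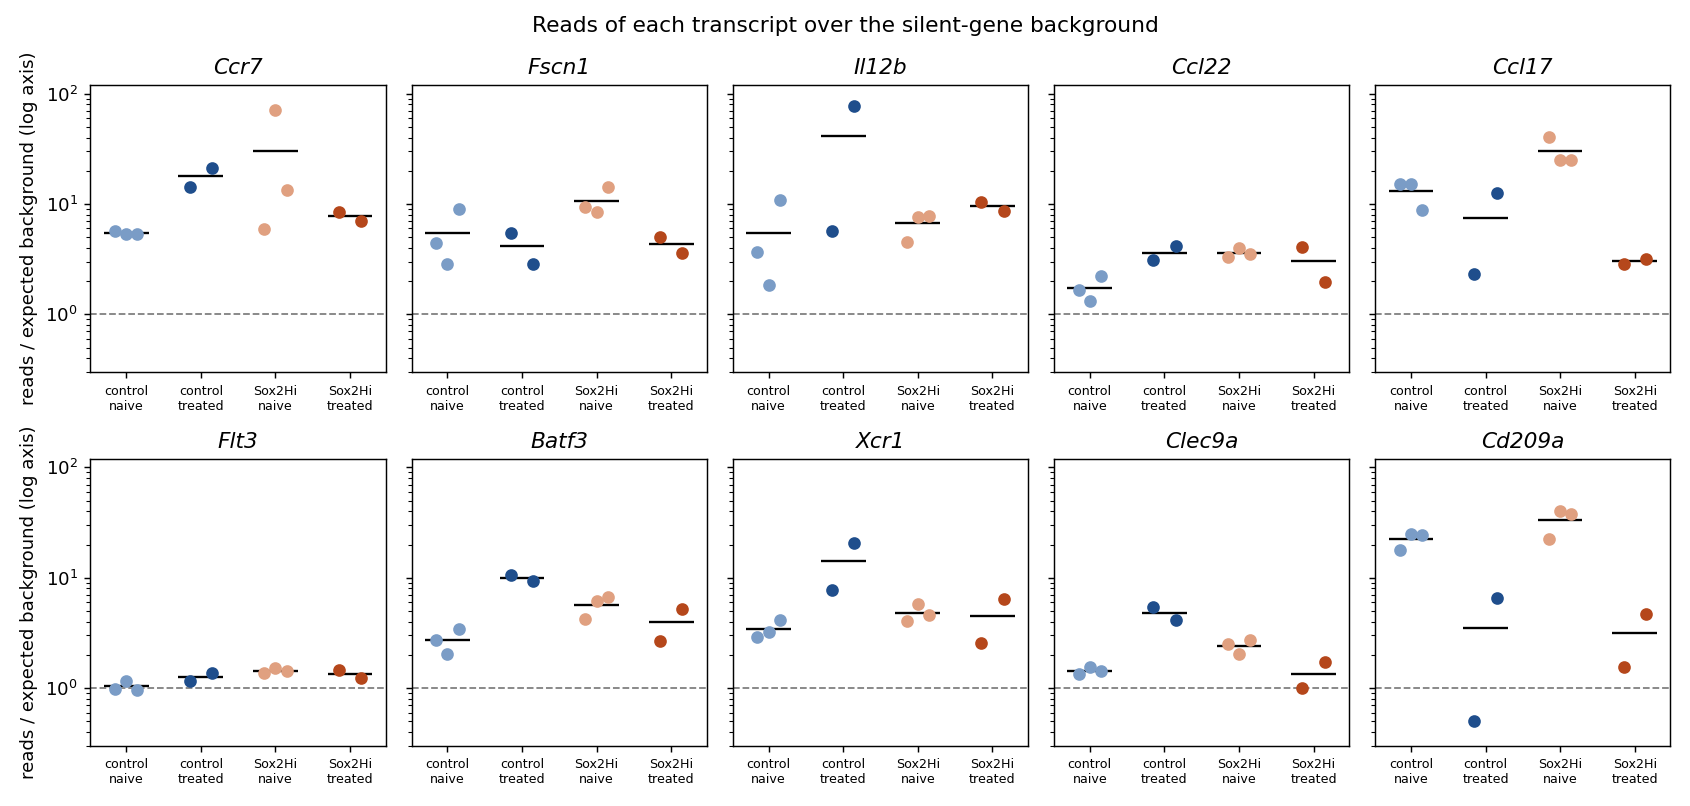
Reads of each of the 10 transcripts divided by the expected silent-gene background of the same library (log axis), for the 4 groups; points are libraries, black bars group means, and the dashed line marks a ratio of 1. Flt3 lies between 0.96 and 1.51 in all libraries, while Cd209a goes from 17.8 to 40.2 in naive libraries to between 0.50 and 6.53 in treated ones.

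The sequences upstream of the start sites are shown for the transcripts on which the treatment results turn, Cd209a, Ccl17 and Il12b, and for Ccl22, the neighbour of Ccl17 on chromosome 8 that shares its receptor. They are from RefSeq (GRCm38.p6), in which 9 of the 10 genes were found, and Ccr7 was not among them. Windows of 250 bases upstream were searched on both strands for 4 patterns: a kappaB pattern (GGG, any 5 bases, then CC), the PU.1 core GAGGAA, an interferon response pattern (GAAA, any 2 bases, then GAAA) and the AP-1 pattern TGANTCA. Capitals mark kappaB matches in Ccl22 and PU.1 core matches in Ccl17 and Il12b. Cd209a lies at chr8:3748985-3749234 (minus strand), Ccl17 at chr8:94810203-94810452 (plus strand), Il12b at chr11:44399813-44400062 (plus strand) and the 156 bases of Ccl22 that lie before both its RefSeq and its GENCODE start at chr8:94745434-94745589 (plus strand).
Cd209a: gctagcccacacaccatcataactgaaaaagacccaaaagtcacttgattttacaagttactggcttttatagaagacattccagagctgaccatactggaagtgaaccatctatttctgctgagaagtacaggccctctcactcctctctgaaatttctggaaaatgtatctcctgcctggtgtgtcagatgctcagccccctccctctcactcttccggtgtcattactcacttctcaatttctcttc
Ccl17: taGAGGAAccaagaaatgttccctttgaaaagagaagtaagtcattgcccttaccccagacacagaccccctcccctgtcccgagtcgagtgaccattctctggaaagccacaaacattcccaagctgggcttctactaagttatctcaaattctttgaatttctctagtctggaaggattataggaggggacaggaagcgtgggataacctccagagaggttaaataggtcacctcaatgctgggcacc
Il12b: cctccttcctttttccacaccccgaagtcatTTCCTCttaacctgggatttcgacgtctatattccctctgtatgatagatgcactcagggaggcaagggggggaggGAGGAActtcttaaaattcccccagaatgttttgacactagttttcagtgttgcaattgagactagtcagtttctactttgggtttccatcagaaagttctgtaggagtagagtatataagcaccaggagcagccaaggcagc
Ccl22: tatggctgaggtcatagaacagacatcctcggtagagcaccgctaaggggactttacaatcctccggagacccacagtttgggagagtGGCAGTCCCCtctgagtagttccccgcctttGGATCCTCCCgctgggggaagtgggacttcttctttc

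Of the 9 windows, 3 held the kappaB pattern (Fscn1, Ccl22 and Batf3, whose window lies inside the longer GENCODE gene), which was in 45.8% of all 32851 windows of this length. The PU.1 core was in 3 (Il12b, Ccl17 and Batf3), against 23.3% of all windows. The interferon response pattern (2.98% of all windows) and the AP-1 pattern (6.75%) were in 0 of the 9. A match is a description of letters and not a binding site, and these windows show no binding.

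After treatment Cd209a and Ccl17 were lower in both grafts, and the calls of Il12b, Xcr1, Batf3, Clec9a and Flt3 in control grafts depended on the scaling. In control grafts 7 of the 10 transcripts were called, beside 33.9% of all genes tested. Of these, 4 were higher (18.7% of all genes) and 3 lower (15.1%). With expressed-gene factors 4 were called (49.5% of all genes) and all 4 were lower (37.3%). With a block by the replicate number of the sample descriptions 2 were called, Batf3 and Cd209a. The share of all genes is not given for that fit. In Sox2Hi grafts 2 were called with either set of factors, both lower, beside 3.61% and 5.0% of all genes called, and 1.82% and 1.67% called lower. Markers of stroma and of keratinocytes, the cell type of the tumour, moved beside them. The 13 stroma markers summed to 258 to 777 CPM in naive and 153 to 169 in treated control grafts, and to 554 to 808 and 135 to 335 in Sox2Hi grafts. The 15 keratinocyte markers summed to 1471 to 3425 and 1361 to 2074 CPM in control grafts, which overlapped, and to 3341 to 4874 and 1757 to 2306 in Sox2Hi grafts, which did not. By gene, 6 stroma markers were called lower in control grafts (10 with expressed-gene factors) and 0 in Sox2Hi grafts, and 2 keratinocyte markers in each graft (8 in control and 3 in Sox2Hi grafts with expressed-gene factors). Their part in the changes of Cd209a, Ccl17 and Fscn1 was not tested. The median change over the 10 was 0.55 in control grafts and -0.36 in Sox2Hi grafts, beside all-gene medians of -0.30 and 0.07. With expressed-gene factors it was 0.10 and -0.16, beside -0.74 and 0.27. Both treatment comparisons use separate naive libraries, and all 10 libraries share 1 estimate of the spread.

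**Figure D2:**
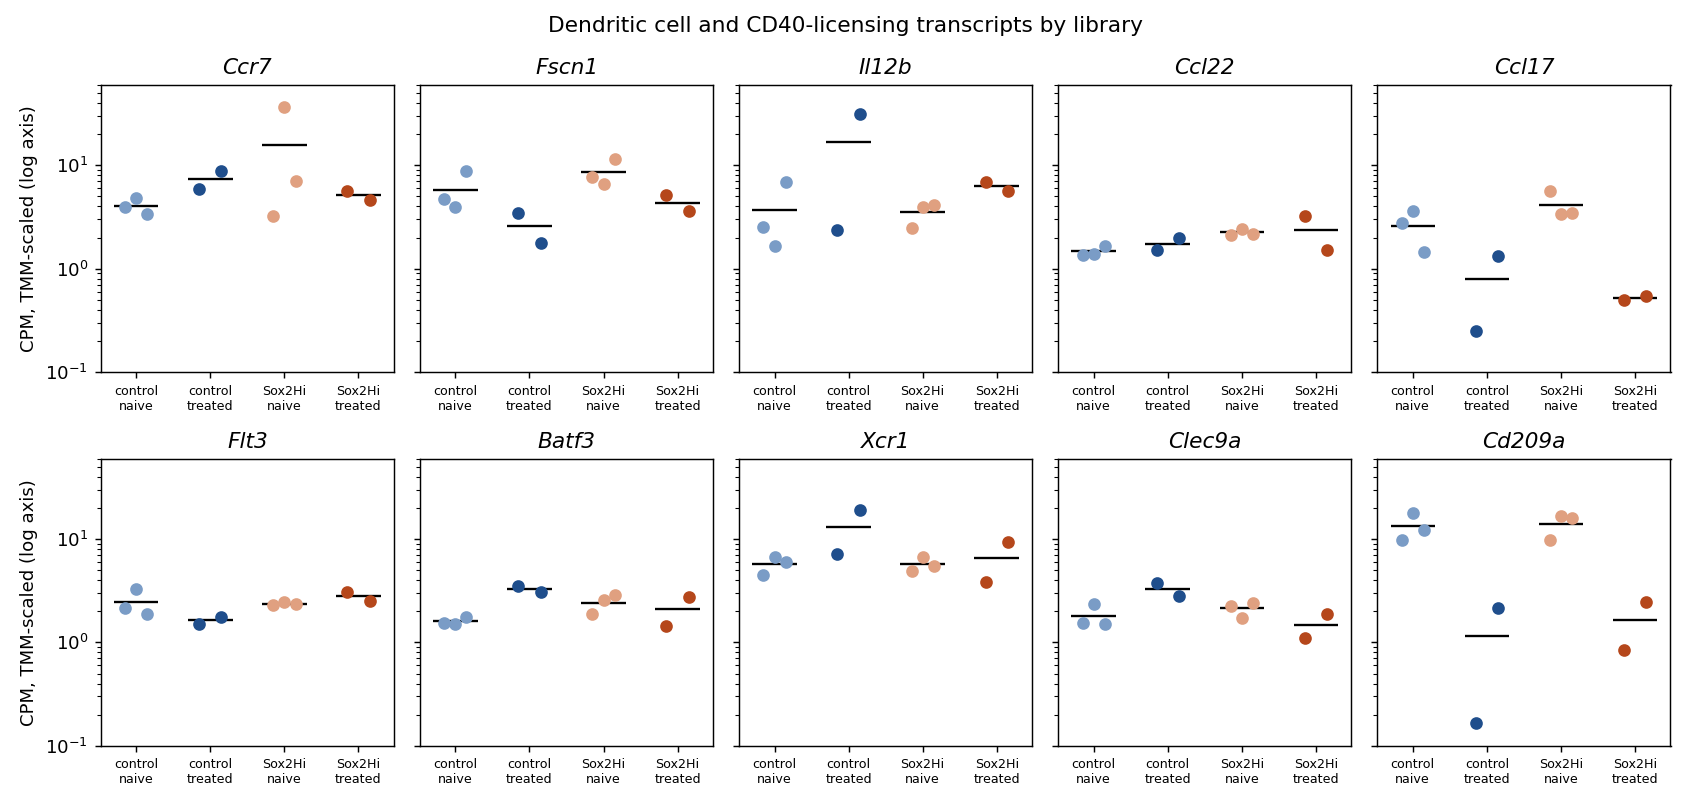
TMM-scaled CPM of the 10 transcripts in every library on a shared log axis; points are libraries and black bars group means. Cd209a and Ccl17 lie lower in all treated libraries than in the naive libraries of the same graft, Ccr7 stands apart at 36.8 CPM in 1 Sox2Hi naive library and Il12b at 31.7 CPM in 1 control treated library.

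Cd209a (ENSMUSG00000031494, chromosome 8, 3743397 to 3748984, minus strand) encodes a C-type lectin that binds glycans on pathogens. The control grafts gave 199, 348 and 253 reads when naive and 2 and 29 when treated. The Sox2Hi grafts gave 194, 287 and 285 reads when naive and 15 and 41 when treated. Every treated library was below every naive library. In control grafts the level went from 13.4 ± 4.18 CPM (SD, n = 3) to 1.16 ± 1.40 (n = 2), a log2 fold change of -3.49 (SE 0.66, edgeR adjusted p = 0.0021). In Sox2Hi grafts it went from 14.1 ± 3.77 (n = 3) to 1.65 ± 1.15 CPM (n = 2), a log2 fold change of -3.10 (SE 0.62, edgeR adjusted p = 0.025). The call in control grafts held in 19 of 19 alternatives, with log2 fold changes from -6.24 (without treated replicate 2) to -2.63 (without treated replicate 1). In Sox2Hi grafts the call held in 14 of 19. It was lost with background subtracted (log2 fold change -3.36, edgeR adjusted p = 0.051). It was also lost without naive replicate 2 (-2.96, edgeR adjusted p = 0.054) or naive replicate 3 (-3.00, edgeR adjusted p = 0.093). The same held without treated replicate 1 (-2.50) or treated replicate 2 (-4.08).

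Among other lectin genes of the type 2 dendritic cell list, 5 besides Cd209b were singled out after their values were seen. Cd209d, a paralog of Cd209a, had a log2 fold change of -3.82 (SE 0.68, edgeR adjusted p = 0.0014) in control grafts and -1.24 (SE 0.40, edgeR adjusted p = 0.10) in Sox2Hi grafts. Mgl2, a galactose-binding lectin, had -1.45 (SE 0.44, edgeR adjusted p = 0.027) and -1.39 (SE 0.44, edgeR adjusted p = 0.096). Clec10a, its close relative, went the other way in control grafts, with 1.20 (SE 0.35, edgeR adjusted p = 0.021), which was not called with expressed-gene factors (0.76, edgeR adjusted p = 0.098). Clec4a4 rose in both grafts, by 2.55 (SE 0.30, edgeR adjusted p = 7.5e-05) and 1.68 (SE 0.30, edgeR adjusted p = 0.018). Cd209e, at 1.60 times background, had -3.56 in control grafts (edgeR adjusted p = 0.0074) and -0.66 in Sox2Hi grafts (edgeR adjusted p = 0.48), and was higher in Sox2Hi than in control treated grafts by 3.19 (edgeR adjusted p = 0.038). Cd209d was higher there by 3.25 (edgeR adjusted p = 0.019), and its responses differed by 2.58 (edgeR adjusted p = 0.044). Cd209b had -0.88 in control grafts (edgeR adjusted p = 0.096) and a difference in response of 1.09 (edgeR adjusted p = 0.13), both called with expressed-gene factors (-1.34 and 1.75, edgeR adjusted p = 0.019 and 0.031). Cd209a, Cd209b, Cd209d and Cd209e, and Mgl2 and Clec10a, are close paralogs, so the division of reads between them is uncertain.

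Ccl17 (ENSMUSG00000031780, chromosome 8, 94810453 to 94812036) and Ccl22 (ENSMUSG00000031779, chromosome 8, 94745590 to 94751699) encode the ligands of Ccr4, which draws regulatory and type 2 helper T cells. Ccl17 had 55, 69 and 30 reads in naive control grafts and 3 and 18 after treatment. Naive Sox2Hi libraries held 113, 58 and 62 reads and treated ones 9 and 9. Treated libraries lay below the naive ones of the same graft, and the control treated libraries stood apart from each other at 0.25 and 1.33 CPM. The log2 fold change was -1.66 in control grafts (SE 0.55, edgeR adjusted p = 0.037) and -2.99 in Sox2Hi grafts (SE 0.55, edgeR adjusted p = 0.020). The call held in 11 of 19 alternatives in control grafts and in 15 of 18 in Sox2Hi grafts, where DESeq2 gave no adjusted p-value. It was lost in control grafts without treated replicate 1 (-0.94, edgeR adjusted p = 0.22) and was -3.30 without treated replicate 2. It was lost in Sox2Hi grafts without naive replicate 3 (-3.11, edgeR adjusted p = 0.054), treated replicate 1 (-2.93) or treated replicate 2 (-3.05).

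Ccl22 was not called in either graft. It had 27, 27 and 34 reads in control naive, 18 and 27 in control treated, 42, 42 and 39 in Sox2Hi naive libraries, with 58 and 25 for Sox2Hi treated. The groups overlapped for treatment in both grafts, with log2 fold changes of 0.26 (95% interval -0.46 to 0.98, edgeR adjusted p = 0.55) and 0.09 (-0.57 to 0.74, edgeR adjusted p = 0.90). With expressed-gene factors the first was -0.19. Expected background made up 37.1% of its reads. Their receptor Ccr4 was at 1.07 times background.

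Fscn1 (ENSMUSG00000029581, chromosome 5, 142960343 to 142973185) encodes fascin, the actin-bundling protein of dendrites in mature dendritic cells. It had 94, 77 and 179 reads in naive control grafts and 41 and 24 after treatment. For Sox2Hi grafts the reads were 154, 114 and 205 before and 92 and 60 after treatment. The treated libraries lay below the naive ones in both grafts. The log2 fold change was -1.17 in control grafts (SE 0.41, edgeR adjusted p = 0.048), called in 8 of 19 alternatives, and it was -0.75 without naive replicate 3 and -0.74 without treated replicate 2 (edgeR adjusted p = 0.13 and 0.32). In Sox2Hi grafts it was -0.97 (SE 0.38, edgeR adjusted p = 0.16).

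Ccr7 (ENSMUSG00000037944, chromosome 11, 99144196 to 99155077, minus strand) encodes the receptor that guides mature dendritic cells and naive lymphocytes to lymph nodes. It had 80, 93 and 70 reads in naive control grafts and 71 and 118 after treatment. In Sox2Hi grafts it had 64, 635 and 127 reads in naive and 101 and 77 in treated libraries. Sox2Hi naive replicate 2, with 635 reads, stood apart from every other library. Treatment gave 0.85 (SE 0.74, edgeR adjusted p = 0.38) in control grafts and -1.61 (SE 0.76, edgeR adjusted p = 0.24) in Sox2Hi grafts, and the latter was -0.0013 without that replicate.

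The same library was high in B cell transcripts. It held 784 reads of Cd79a and 584 of Cd79b, both of the B cell receptor, and 732 of Ms4a1, while the other libraries held 16 to 60, 29 to 92 and 43 to 95. The summed CPM of the 12 B and plasma cell markers was 1016 there and 94.1 to 864 elsewhere. The gene whose profile was most like that of Ccr7 over the 10 libraries was Cd79b (r = 0.92), and r was 0.60 without that library. The 16 T and natural killer cell markers summed to 229 CPM there, against 67.5 and 90.3 in the other naive Sox2Hi libraries. The part of B and T cells in this level of Ccr7 was not tested. Among ligands of Ccr7, Ccl19 had 22, 42 and 93 reads in naive control grafts and 400 and 98 after treatment, most of them in treated replicate 1. It rose there by 2.96 (SE 0.72, edgeR adjusted p = 0.0090), and Ccl21a had -2.19 (SE 1.09, edgeR adjusted p = 0.14).

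Il12b (ENSMUSG00000004296, chromosome 11, 44400063 to 44414033) encodes the p40 subunit that interleukins 12 and 23 share. It had 51, 32 and 140 reads in naive control grafts and 28 and 428 after treatment. In Sox2Hi grafts it had 49, 68 and 74 reads in naive and 124 and 94 in treated libraries. The control groups overlapped, with all of the excess in treated replicate 2 at 31.7 CPM. The log2 fold change of 2.21 in control grafts (SE 0.76, edgeR adjusted p = 0.043) became -0.63 without that library (edgeR adjusted p = 0.54), and with expressed-gene factors it was 1.76 (edgeR adjusted p = 0.053). In Sox2Hi grafts both treated libraries lay above the naive ones, with 0.84 (SE 0.78, edgeR adjusted p = 0.58).

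The partner subunits of Il12b moved in both control treated libraries. Il12a, the p35 subunit specific to interleukin 12, went from 6.33 ± 0.154 (SD, n = 3) to 89.6 ± 10.7 CPM (n = 2), a log2 fold change of 3.82 (SE 0.23, edgeR adjusted p = 2.8e-06). In Sox2Hi grafts it rose from 7.65 ± 0.775 to 26.2 ± 9.45 CPM, by 1.78 (SE 0.22, edgeR adjusted p = 0.0022), and the difference between the responses was -2.04 (edgeR adjusted p = 0.0046; -1.39 and 0.0097 with expressed-gene factors). Il23a, the p19 subunit of interleukin 23, rose by 2.14 in control grafts (SE 0.25, edgeR adjusted p = 7.1e-05) and had -0.68 in Sox2Hi grafts (SE 0.25, edgeR adjusted p = 0.15). Ebi3 and Il27, which together form interleukin 27, rose by 3.07 and 3.11 in control grafts (edgeR adjusted p = 1.2e-05 and 0.00013), and Ebi3 by 1.57 in Sox2Hi grafts (edgeR adjusted p = 0.0095).

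The 3 type 1 dendritic cell transcripts were low. Xcr1 (ENSMUSG00000060509, chromosome 9, 123852315 to 123862029, minus strand), the receptor for the chemokine Xcl1, had 91, 128 and 122 reads in control naive, 86 and 256 in control treated, 98, 117 and 98 in Sox2Hi naive libraries, with 69 and 156 for Sox2Hi treated. In CPM both control treated libraries were above the naive ones, at 7.19 and 18.9 against 4.53 to 6.64. With expressed-gene factors they overlapped, at 6.34 and 15.2 against 5.15 to 8.40. With all-gene factors the log2 fold change in control grafts was 1.20 (SE 0.40, edgeR adjusted p = 0.039), and 0.36 without treated replicate 2. That library also held 139 reads of Cd3e, against 27 to 117 in the others, and a summed 677 CPM of the 16 T and natural killer cell markers, against 67.5 to 298. Its B and plasma cell markers summed to 864 CPM, against 106 to 207 in the other control libraries. Their part in Xcr1 and Il12b was not tested.

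Batf3 (ENSMUSG00000026630, chromosome 1, 191097847 to 191108945) had 31, 29 and 36 reads in control naive, 42 and 42 after treatment, and 37, 44 and 51 in Sox2Hi naive with 26 and 46 after treatment. Clec9a (ENSMUSG00000046080, chromosome 6, 129408862 to 129424763), a receptor for the actin of dead cells, had 31, 45 and 31, then 45 and 38, then 45, 30 and 43, then 20 and 31 reads in the same groups. In CPM both were higher in each control treated library than in each control naive one, and in Sox2Hi grafts the groups overlapped. With expressed-gene factors Batf3 stayed apart in control grafts, but Clec9a overlapped, at 3.32 and 2.26 CPM treated against 1.58 to 2.95 naive. The log2 fold changes in control grafts were 1.04 for Batf3 (SE 0.29, edgeR adjusted p = 0.018) and 0.87 for Clec9a (SE 0.30, edgeR adjusted p = 0.041). The calls held in 13 and 7 of 19 alternatives. With expressed-gene factors neither was called, at 0.60 and 0.41 (edgeR adjusted p = 0.11 and 0.31), nor was Xcr1 (0.72, edgeR adjusted p = 0.14). Expected background was 22.5% of the reads of Batf3 and 49.7% of those of Clec9a.

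Flt3 (ENSMUSG00000042817, chromosome 5, 147330741 to 147400489, minus strand) had 43, 64 and 39 reads in control naive, 18 and 24 in control treated, 46, 42 and 42 in Sox2Hi naive libraries, with 55 and 42 for Sox2Hi treated. Its log2 fold change in control grafts was -0.57 (SE 0.28, edgeR adjusted p = 0.13), and -1.04 with expressed-gene factors (edgeR adjusted p = 0.024). With background subtracted it was 0.59 (edgeR adjusted p = 0.78). Expected background made up 80.6% of its reads, so these values are near the limit of what the libraries can show. Flt3l, its ligand, rose by 1.24 in control grafts (SE 0.32, edgeR adjusted p = 0.012), and by expressed-gene factors had 0.82 (edgeR adjusted p = 0.066).

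**Figure D3:**
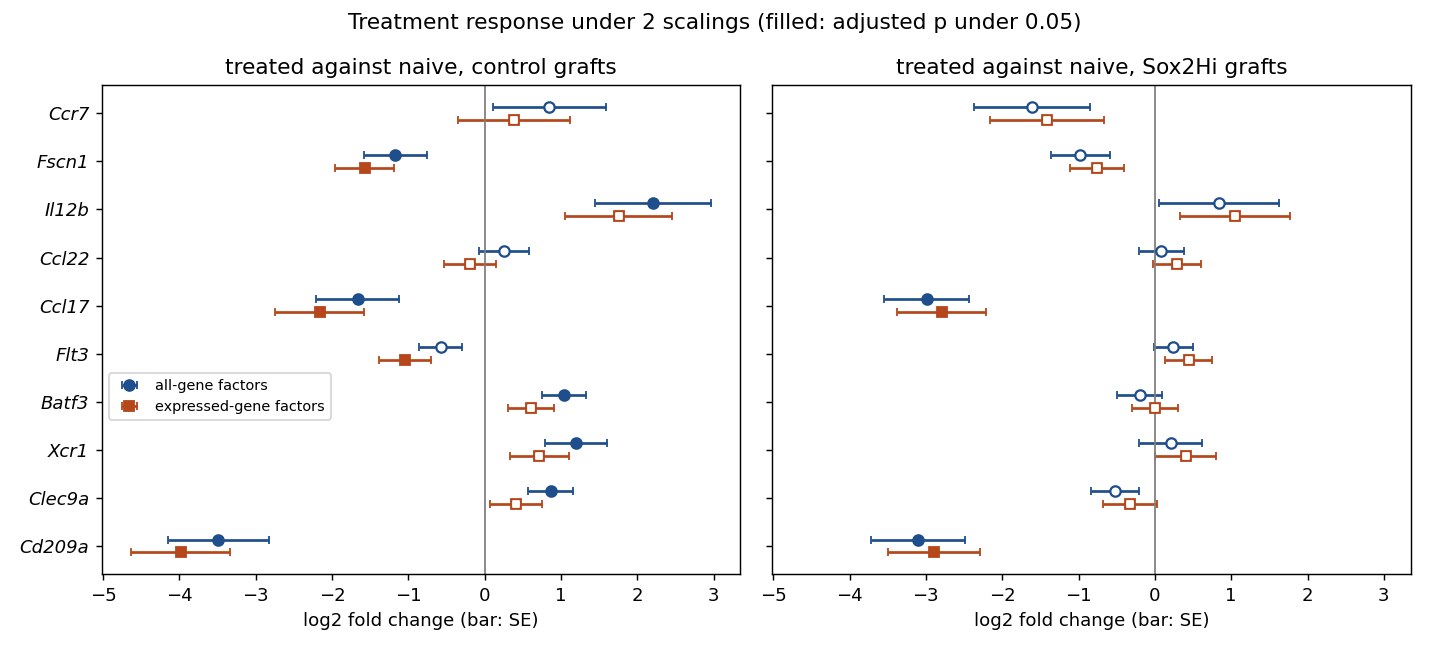
Log2 fold change of treated against naive with its SE for the 10 transcripts in control and Sox2Hi grafts, with all-gene (circles) and expressed-gene factors (squares); filled symbols have an edgeR adjusted p under 0.05. Cd209a and Ccl17 are filled with both sets of factors in both grafts, while Il12b, Batf3, Xcr1 and Clec9a are filled only with all-gene factors and only in control grafts.

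The grafts were also compared with each other. In naive tumours 0 of 10 were called with either set of factors, beside 1.88% and 6.01% of all genes, while 3 of 10 had an unadjusted p under 0.05, near the 27.3% of all genes, and DESeq2 called 1, Ccr7. Ccr7 had 1.94 (SE 0.66, edgeR adjusted p = 0.10), and 0.34 without Sox2Hi naive replicate 2. Cd209a had 0.07 (95% interval -0.92 to 1.06). In treated tumours 1 of 10 was called, Clec9a, lower in Sox2Hi by -1.14 (SE 0.34, edgeR adjusted p = 0.045), beside 13.8% of all genes called and 9.62% called lower. With expressed-gene factors 0 of 10 were called (13.4% of all genes), and Clec9a had -0.80 (edgeR adjusted p = 0.16).

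The test of the difference between the treatment responses called 2 of 10, Batf3 (-1.24, SE 0.41, edgeR adjusted p = 0.045) and Clec9a (-1.39, SE 0.43, edgeR adjusted p = 0.034), both with a lower response in Sox2Hi grafts. This stood beside 27.5% of all genes called and 16.3% called lower. With expressed-gene factors neither was called (edgeR adjusted p = 0.28 and 0.25) and Flt3 was, at 1.49 (edgeR adjusted p = 0.029), beside 31.6% of all genes called and 27.5% called higher. For Cd209a the difference was 0.39 (95% interval -1.52 to 2.29), and for Ccl17 it was -1.32 (-3.08 to 0.43), so neither was shown to respond differently in the grafts.

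Genes of the CD40 pathway were mostly higher in treated control grafts. Cd40 itself, the target of the agonist, went from 10.8 ± 0.927 (SD, n = 3) to 52.4 ± 0.592 CPM (n = 2) in control grafts, a rise of 2.28 (SE 0.23, edgeR adjusted p = 2.8e-05), and from 10.05 ± 1.36 to 27.3 ± 10.1 CPM in Sox2Hi grafts, a rise of 1.44 (SE 0.23, edgeR adjusted p = 0.0085). Of 24 genes of CD40 signalling, 23 were higher and 1, Traf5, lower in control grafts (median 1.56 beside -0.30 for all genes), beside 18.7% of all genes higher. With expressed-gene factors 19 were higher and 1 lower (1.09 beside -0.74), beside 12.1% of all genes higher. In Sox2Hi grafts 3 were higher, Cd40, Traf1 and Traf3, and 0 lower (median 0.35 beside 0.07), beside 1.79% of all genes higher. With expressed-gene factors 4 were higher, with Birc3 added, beside 3.33% of all genes. Nfkbia, the inhibitor that NF-kB induces, rose by 1.84 in control grafts (SE 0.21, edgeR adjusted p = 5.8e-05) and had 0.23 in Sox2Hi grafts (SE 0.21, edgeR adjusted p = 0.57). Tnfaip3, another NF-kB inhibitor, and Birc3, a ubiquitin ligase of the CD40 complex, rose by 2.14 and 1.89 in control grafts (edgeR adjusted p = 7.9e-06 and 2.5e-05) and had 0.42 and 0.64 in Sox2Hi grafts (edgeR adjusted p = 0.16 and 0.078). With expressed-gene factors Birc3 was called there, at 0.83 (edgeR adjusted p = 0.046). The difference was called for 18 of the 24, of which 17 were lower in Sox2Hi, beside 27.5% of all genes called and 16.3% called lower. With expressed-gene factors it was called for 7 of 24, of which 6 were lower, beside 31.6% of all genes called and 4.10% called lower. With expected background subtracted it was called for 1 of 24, Traf5, whose response was higher in Sox2Hi. The share of all genes called is not given for that fit, so this count cannot be read as particular to the CD40 list. Many of these genes are also expressed by neutrophils, whose own markers rose on treatment: 17 of 19 in control and 9 of 19 in Sox2Hi grafts, with none lower. Whether the neutrophil markers and the CD40 genes changed for a shared reason was not tested.

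Of 26 genes of mature dendritic cells, none of them among the 10, 18 were higher and 1 lower in control grafts (median 1.32 beside -0.30 for all genes), where 18.7% of all genes were higher and 15.1% lower. In Sox2Hi grafts 4 were higher, Ccl5, Fas, Il15ra and Traf1 (median 0.03 beside 0.07), where 1.79% of all genes were higher. With expressed-gene factors, where 37.3% of all genes were lower in control grafts, the counts were 16 higher and 2 lower in control (median 0.85) and 5 higher in Sox2Hi grafts (median 0.23). Cd86 rose by 2.21 (SE 0.43, edgeR adjusted p = 0.0025) in control grafts and had 1.07 (SE 0.43, edgeR adjusted p = 0.17) in Sox2Hi grafts. Samsn1, an adaptor protein, rose by 1.81 in control grafts (edgeR adjusted p = 0.00012) and had 0.44 in Sox2Hi grafts (edgeR adjusted p = 0.30). Tmem123 rose by 0.74 in control grafts (edgeR adjusted p = 0.029), which was not called with expressed-gene factors (0.28, edgeR adjusted p = 0.31). Fas, the death receptor, rose by 2.72 in control (edgeR adjusted p = 1.2e-05) and by 1.3 in Sox2Hi grafts (edgeR adjusted p = 0.014). Of 15 tested genes of type 1 dendritic cells 8 were higher and 2 lower in control grafts (median 1.17; 8 and 3, median 0.72, with expressed-gene factors), and of 14 of type 2 dendritic cells 7 were higher and 4 lower (median 0.77; 6 and 6, median 0.35, with expressed-gene factors). In Sox2Hi grafts 2 of each list were higher and 0 lower (3 of each with expressed-gene factors). Klf4, a transcription factor and the most abundant gene of the type 2 list, had 0.35 in control grafts (edgeR adjusted p = 0.35; -0.07 with expressed-gene factors) and 0.13 in Sox2Hi grafts (edgeR adjusted p = 0.84). Of the other abundant genes of both lists, Zeb2, Rbpj, Ppt1 and Cd24a rose by 2.12, 1.57, 1.27 and 1.27 in control grafts (edgeR adjusted p from 4.2e-05 to 0.00027) and had 0.59, -0.22, -0.16 and -0.32 in Sox2Hi grafts (edgeR adjusted p from 0.18 to 0.65). Ifi205, an interferon-inducible gene, rose by 1.87 and 1.53 in the control and Sox2Hi grafts (edgeR adjusted p = 0.0008 and 0.025), Id2, a regulator of dendritic cell development, by 1.79 in control grafts (edgeR adjusted p = 0.0005), and Ltb, the membrane subunit of lymphotoxin, by 2.38 in control grafts (edgeR adjusted p = 1.6e-05). In Sox2Hi grafts Id2 had 0.30 (edgeR adjusted p = 0.58) and Ltb 0.77 (edgeR adjusted p = 0.065; 0.97 and 0.040 with expressed-gene factors). Of 14 genes shared by dendritic cells 6 were higher, among them Cd74, the invariant chain of class II, by 1.73 (SE 0.31, edgeR adjusted p = 0.0014), and 1 lower, Spib, in control grafts, and with expressed-gene factors 6 and 3. In Sox2Hi grafts 0 of 14 were called with either set of factors, and the treated libraries stood apart, at 10063 and 23947 summed CPM, against 8955 to 12639 in the naive ones. Macrophage markers, which share class II and Cd86 expression with dendritic cells, were higher for 8 of 16 in control grafts and for 0 in Sox2Hi grafts. With expressed-gene factors 5 were higher and 2 lower, Cd163 and Mertk, in control grafts, and 1 higher, Fcgr1, in Sox2Hi grafts. T and natural killer cell markers were higher for 9 of 16 in control grafts (6 with expressed-gene factors, and 1 lower) and for 1, Nkg7, in Sox2Hi grafts. The part of either cell type in these counts was not tested.

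**Figure D4:**
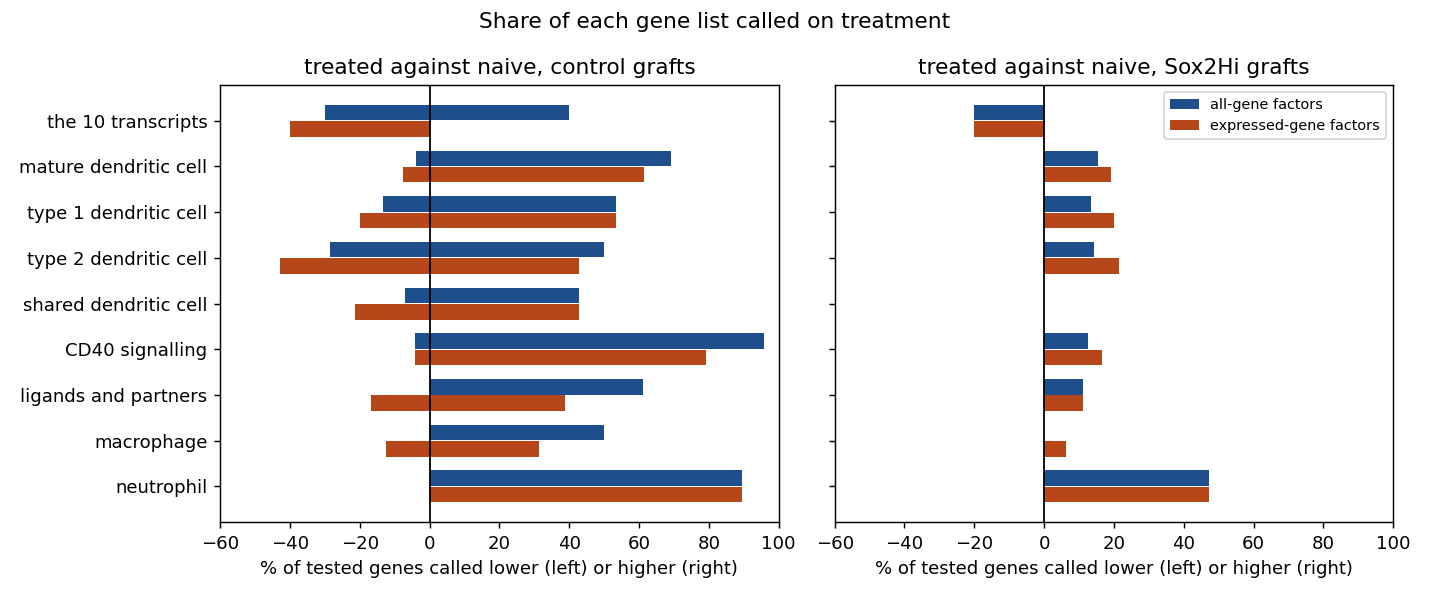
Percent of the tested genes of each list that were called lower (left of 0) or higher (right of 0) on treatment, in control and Sox2Hi grafts, with all-gene and expressed-gene factors. For CD40 signalling 23 of 24 genes lie to the right in control grafts, while the 10 transcripts are split between the sides and lie only to the left with expressed-gene factors.

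Among themselves the 10 transcripts did not move as 1 group. Over the 10 libraries, as a description, the highest correlation of log2(CPM + 1) was between Ccl17 and Cd209a (r = 0.87, and 0.38 for deviations from the group means), followed by Batf3 and Clec9a (0.72 and 0.42) and Il12b and Xcr1 (0.70 and 0.61). The lowest was between Fscn1 and Xcr1 (-0.69 and -0.53). For deviations from the group means, the highest was between Xcr1 and Cd209a (0.94, against -0.25 before that step). The lowest of these was between Fscn1 and Ccl17 (-0.76, against 0.50). All pairs share libraries, depth and scaling. The correlation of log2(CPM + 1) over the 10 libraries was also taken with protein-coding genes averaging 5 CPM or more. Dtl was most like Cd209a (r = 0.96), Gm9747 most like Fscn1 (0.98) and Atp1b1 most like Ccl22 (0.92). Ube2j2 was most like Batf3 (0.96) and Mcm10 most like Clec9a (0.95). For Il12b it was Flvcr1 (0.90), with r = 0.58 without control treated replicate 2, and for Xcr1 it was 2010315B03Rik (0.93), with r = 0.75 without that library. Thbs1 and Il1rl2 were among those most like Ccl17 (both 0.89). The gene most like Flt3 was Olfr190 (0.90), an olfactory receptor.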

How the data were processed

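The authors deposited estimated counts per gene for 10 libraries of bulk neutrophil RNA, as whole numbers not scaled between libraries. The submitters' processing notes list kallisto 0.44.0 and mm10 with no role, and how counts were rounded and whether strand was used are not given in the sources used here. The table had 55481 entries, of which 92 spike-in and 4 transgene sequences (0.000992% to 0.00277% of counts) were left out. Symbols and exon lengths came from GENCODE M21, in which 55144 of 55385 genes were found.

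Genes were filtered with filterByExpr, scaled with TMM and fitted as 4 groups in 1 model with the quasi-likelihood test of edgeR 4.0.16 (R 4.3.3), with Benjamini-Hochberg adjustment. The SE is the absolute log2 fold change over the square root of F, and 95% intervals use the degrees of freedom of the test. The fit was tested on simulated data. Expected background is the median count per kb of the silent receptor genes times exon length. Alternatives were expressed-gene factors, library totals, DESeq2 1.42.0, all genes with a count, background subtraction, blocks by replicate number and leaving out each library. A Ddx3y covariate (at most 8 reads in 4 libraries, at least 1007 in 6) and limma 3.58.1 voom with quality weights were chosen after seeing the data. Deviations from group means of same-numbered libraries, by title, correlated at 0.271, 0.335 and 0.479 between naive grafts, whose numbers were taken to pair them. By title number, naive and treated libraries correlated at 0.162 and 0.155 in control grafts and at -0.282 and -0.0686 in Sox2Hi grafts. Both pairs between treated grafts gave -0.0928, which is only 1 value, as deviations of 2 libraries from their mean mirror each other. The sample descriptions number some treated libraries otherwise than the titles, and correlations by those numbers were not computed. These values therefore cannot decide whether treated libraries were paired, and the 4-group fit did not pair them. Replicates of a group differed by more than sampling noise (chi-square per degree of freedom from 12.5 to 33.8).

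Genes that could be named by rule were all 10 transcripts, Cd40, the partner genes, the 4 most abundant genes of each other list and, for likeness, the 3 protein-coding genes averaging 5 CPM or more with the highest r. Values are printed for all 10 and for a part of the others. Zbtb46, Lamp3, Cd3e, Cd79a, Ms4a1, Cxcr2, Ddx3y and the lectins singled out in the text are outside this rule and were chosen after their values were seen. Genes and lists were chosen with earlier results of these data known.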

Additional observations from a re-analysis of the deposited data

Results flagged for a closer look

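The response to treatment differed between the grafts, by the interaction test over all genes, for 2 of the 10 transcripts, beside 27.5% of all genes called and 16.3% called lower in the same test, so the count is near that share and neither call held with expressed-gene factors. For Batf3 the log2 response was lower in Sox2Hi than in control grafts by -1.2425 (edgeR adjusted p = 0.045), which was called in 7 of 19 alternatives. For Clec9a it was lower by -1.3925 (edgeR adjusted p = 0.034), called in 9 of 19 alternatives.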

How the results depend on the processing

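In control grafts 7 transcripts were called for treatment. With expressed-gene factors or library totals 4 were called, Ccl17, Cd209a, Flt3 and Fscn1. DESeq2 and limma-voom also called 4, but these were Batf3, Cd209a, Clec9a and Xcr1. The replicate block by description number called 2, Batf3 and Cd209a. The count was 3 with background subtracted, 6 with the block by title number and 1 to 4 without 1 control naive replicate. In Sox2Hi grafts the count of 2 became 1 with DESeq2 (Cd209a) or background subtraction (Ccl17). It was 1 without Sox2Hi naive replicate 2 (Ccl17) and 0 without Sox2Hi naive replicate 3. DESeq2 gave no adjusted p for 5 of the 10 there. Between naive grafts 0 became 1 with DESeq2. Between treated grafts 1, Clec9a, became 3 with library totals, which were Ccl22, Flt3 and Fscn1. It became 0 with expressed-gene factors, background subtraction, the Ddx3y covariate or the block by description number. The count was also 0 without control naive replicate 1 or any 1 Sox2Hi naive replicate. The block by title number called Xcr1 there in place of Clec9a. For the interaction 2 became 1 with expressed-gene factors or library totals, where the gene called was Flt3. With the Ddx3y covariate 1 was called, Clec9a. The count was 0 with background subtraction or the block by description number, and without control naive replicate 1 or Sox2Hi naive replicate 3. The block by title number changed no call between naive grafts, where those numbers pair the libraries. Shares of all genes called are given only for all-gene and expressed-gene factors. The other counts therefore cannot be read as results about the 10 transcripts.

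Under these alternatives 60 fold changes changed direction, and some of these also lost a call. A further 100 kept their direction and lost a call, 12 gained one and 778 did neither, including those with no adjusted p. With library totals, treatment in control grafts gave -0.013 for Batf3, -0.80 for Ccl22, -0.23 for Ccr7 and -0.20 for Clec9a, treated grafts gave 0.062 for Batf3, 0.12 for Ccl17 and 0.25 for Ccr7, naive grafts gave -0.20 for Cd209a, -0.0025 for Clec9a and -0.25 for Xcr1, and the interaction 0.85 for Ccl22. Expressed-gene factors gave 0.0054 for Batf3 on treatment in Sox2Hi grafts, -0.19 for Ccl22 in control grafts and 0.48 in the interaction, and in naive grafts -0.26 for Cd209a, -0.060 for Clec9a and -0.30 for Xcr1. Background subtraction gave -0.35 for Cd209a, 1.62 for Flt3 and -0.23 for Xcr1 in naive grafts, and for Flt3 0.59 on treatment in control grafts and -0.21 in the interaction. DESeq2 gave 0.052 for Flt3 and 0.021 for Il12b in naive grafts and -0.070 for Fscn1 in the interaction. Keeping all genes with a count gave -0.011 for Ccl22 on treatment in Sox2Hi grafts and 0.062 for Flt3 in naive grafts. Limma-voom gave -0.015 for Ccl22 on treatment in Sox2Hi grafts, and in naive grafts 0.10 for Flt3 and 0.28 for Il12b. The replicate block by description number gave 0.068 for Ccr7 in treated and 0.23 for Il12b in naive grafts, and the block by title number 0.032 for Il12b in naive grafts.

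Leaving out 1 library moved treatment in Sox2Hi grafts from -0.75 to 0.21 for Batf3, -0.56 to 0.51 for Ccl22 and -0.59 to 0.72 for Xcr1, and in control grafts from -0.63 to 3.11 for Il12b. Between treated grafts it moved Ccl17 from -1.34 to 1.02, Ccl22 from -0.28 to 0.87, Cd209a from -0.51 to 3.23 and Il12b from -2.33 to 1.41. Between naive grafts it moved Cd209a from -0.11 to 0.34, Flt3 from -0.21 to 0.22, Il12b from -0.42 to 0.73 and Xcr1 from -0.14 to 0.12. The interaction moved from -2.06 to 0.30 for Ccl17, -0.88 to 0.24 for Ccl22, -0.61 to 3.13 for Cd209a, -0.25 to 0.71 for Fscn1 and -2.28 to 1.46 for Il12b. Where this left 1 library in a group, that library was assumed to vary like the others. The cause of these changes was not tested. Batf3, Clec9a, Ccl22 and Flt3 had at most 64 reads in every library. Expected background made up 22.5% to 80.6% of these reads, which limits what their fold changes can show.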
